A study of Mus musculus with 6 samples.

Results

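Adenosine and purinergic signalling was followed through 10 listed genes in cultured mouse fibroblast-like synoviocytes, the connective tissue cells that line the joint. A gene entered when a probe set carried its symbol alone in the platform annotation, and the brightest such probe set over the 6 arrays stood for it. This gave 7 measured genes of 22180 in all (Nt5e, Entpd1, Ada, Slc29a1, P2rx4, P2rx7 and P2ry2). The adenosine receptor genes Adora1, Adora2a and Adora2b, 3 of the 10, were not analysed here. The cells came from knee synovium of C57BL6 mice and were between passages 4 and 8. Both groups were exposed to adenovirus for 2 h at a multiplicity of infection of 800 and then cultured for 24 h. The virus was empty in the 3 Mock samples and carried Epas1, the gene of the oxygen-regulated transcription factor HIF-2alpha, in the 3 Ad-Epas1 samples. The labels name neither the promoter driving Epas1 nor the source of each replicate, and the spread that p-values measure may therefore be technical. No uninfected cells were compared.

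Cells under stress release ATP, which acts on nearby cells through P2X receptors, which are ATP-gated channels, and P2Y receptors, which signal through G proteins. On the cell surface, CD39 (encoded by Entpd1) removes phosphates from ATP and ADP, and CD73 (encoded by Nt5e) turns the resulting AMP into adenosine. Adenosine acts on its own receptors, several of which raise or lower cyclic AMP. It is removed by uptake through the transporter ENT1 (Slc29a1) and by deamination to inosine by adenosine deaminase (Ada). Low oxygen is known to favour extracellular adenosine, and CD73 marks many fibroblasts.

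The start-site regions of Nt5e, Ada, Slc29a1 and P2ry2 are shown because these 4 members had the differences that the results turn on. Each window is a RefSeq promoter of the GRCm38.p6 build, 300 bases long, from 250 bases before the start site to 50 after it, written 5′ to 3′ on the gene's strand. Capitals mark ACGTG and GCGTG, the 2 spellings of the core that HIF proteins bind, searched on both strands. The palindrome formed by ACGTG preceded by C counts once on each strand. Of 8 Slc29a1 windows, the one with the most matches is shown, and of 2 overlapping P2ry2 windows the more upstream.
Nt5e chr9:88327359-88327658, plus strand: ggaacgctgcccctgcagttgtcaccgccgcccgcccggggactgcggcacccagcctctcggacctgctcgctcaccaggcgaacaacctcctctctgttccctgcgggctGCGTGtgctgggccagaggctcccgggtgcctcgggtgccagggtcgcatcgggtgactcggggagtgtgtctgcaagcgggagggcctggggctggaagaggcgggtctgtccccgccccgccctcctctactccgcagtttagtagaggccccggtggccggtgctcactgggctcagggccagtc
Ada chr2:163750190-163750489, minus strand: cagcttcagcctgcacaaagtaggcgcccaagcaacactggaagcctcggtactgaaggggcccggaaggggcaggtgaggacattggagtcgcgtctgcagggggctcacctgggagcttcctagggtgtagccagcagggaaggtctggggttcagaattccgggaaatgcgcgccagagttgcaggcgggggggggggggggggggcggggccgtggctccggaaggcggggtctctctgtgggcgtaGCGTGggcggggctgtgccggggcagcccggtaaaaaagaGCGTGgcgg
Slc29a1 chr17:45595197-45595496, minus strand: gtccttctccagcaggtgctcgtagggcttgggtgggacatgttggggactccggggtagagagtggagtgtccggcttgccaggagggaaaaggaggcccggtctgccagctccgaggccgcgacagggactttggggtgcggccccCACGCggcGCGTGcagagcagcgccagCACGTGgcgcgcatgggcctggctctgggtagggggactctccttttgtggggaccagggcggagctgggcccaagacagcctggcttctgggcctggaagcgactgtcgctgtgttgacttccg
P2ry2 chr7:101012004-101012303, minus strand: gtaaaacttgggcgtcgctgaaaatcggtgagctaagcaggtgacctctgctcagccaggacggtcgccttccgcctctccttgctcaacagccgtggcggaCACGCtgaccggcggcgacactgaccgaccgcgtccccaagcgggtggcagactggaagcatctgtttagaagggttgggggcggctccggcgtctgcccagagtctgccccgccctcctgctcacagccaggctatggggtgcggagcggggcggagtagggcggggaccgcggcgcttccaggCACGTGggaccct

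Nt5e has 1 match, GCGTG at position -138 from the start site, and Ada has GCGTG at positions 2 and 42. The Slc29a1 window has matches at positions -102, -94, -75 and -74. The P2ry2 window has them at positions -148, 38 and 39. All 7 measured members had a RefSeq window, 17 in all. Either spelling occurred in 9 of the 17 windows and in at least 1 window of 5 genes, the exceptions being P2rx4 and P2rx7. Slc29a1 gave 8 of the 17 windows, 4 of them with a match. The 2 overlapping P2ry2 windows share their matches, so the windows are not independent. Over 32851 windows of the same length, 43.8% held one or the other (ACGTG 19.6%, GCGTG 32.4%), so a match is common. The cyclic AMP response element TGACGTCA occurred in 0 of the 17 windows and in 1.79% of all windows. No binding was measured, and a match is a description of the letters only.

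Levels are log2 values after RMA, the array normalization applied by the submitters, and the array medians lay between 6.77 and 6.84. As a mark of low signal, the 95th percentile over 1390 genes of odour and pheromone receptors, which these cells have no known use for, was 6.62. Epas1 stood at 8.67, 8.71 and 8.51 on Mock replicates 1, 2 and 3 and at 13.14, 13.15 and 13.11 on Ad-Epas1 replicates 1, 2 and 3, so the 3 Ad-Epas1 arrays were alike in Epas1. Fibroblast markers (13 genes) had array medians between 11.4 and 12.1. The labels describe cells checked by flow cytometry as nearly free of CD14, but 20 macrophage markers had medians between 10.7 and 11.4 on 5 arrays. On Ad-Epas1 replicate 3 all 20 were at their lowest, with a median difference of -3.85 from the Mock mean. The log2 of their summed level was 15.6 to 15.8 in Mock and 15.8, 15.6 and 11.9 in Ad-Epas1. On Ad-Epas1 replicate 3 some markers were under the 6.62 mark, such as Adgre1, a macrophage surface antigen, at 5.89. Others stayed above it, such as Cd68 at 10.2. Markers also differed on the other Ad-Epas1 arrays. Without replicate 3, 4 of the 20 macrophage markers rose (Cd14, 1.48, SE 0.19) and 5 fell (Mrc1, -2.36, SE 0.29). Of the 13 fibroblast markers, 2 rose and 6 fell (Cdh11, -1.43, SE 0.18). Rises and falls are limma calls as defined below, and in that fit 24.3% of all genes passed. The part of these differences in the results was not tested. Array medians of the endothelial, mural, T cell, B cell, neutrophil and mast cell lists did not exceed 7.57. Single genes could stand higher, such as the mural marker Cspg4, with a Mock mean of 9.07. In bulk RNA, fewer cells of a type and less RNA per cell cannot be told apart. Because of this array, each result below is also given without it where that ends or makes a call.

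Of the 7 measured members, Ada fell in Ad-Epas1 cells, none rose and 6 did not pass the test (limma, Benjamini-Hochberg adjusted p under 0.05 over all genes). Among all genes 16.3% passed, 6.57% upward and 9.75% downward. Another quantile step between arrays changed that split from 1458 up and 2162 down to 1913 up and 1731 down. The 2 groups did not overlap for Nt5e, Ada and Slc29a1, 3 of the 7, against 39.7% of all genes. Without Ad-Epas1 replicate 3 the count was 4: Nt5e and P2ry2 rose, and Ada and Slc29a1 fell. In that fit 24.3% of all genes passed, 2290 upward and 3100 downward. Below, arrays are named by group and replicate number (Mock 1, Ad-Epas1 3), and values follow that order. The median log2 fold change of the 7 was -0.08, beside 0.05 for all genes.

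**Figure D1:**
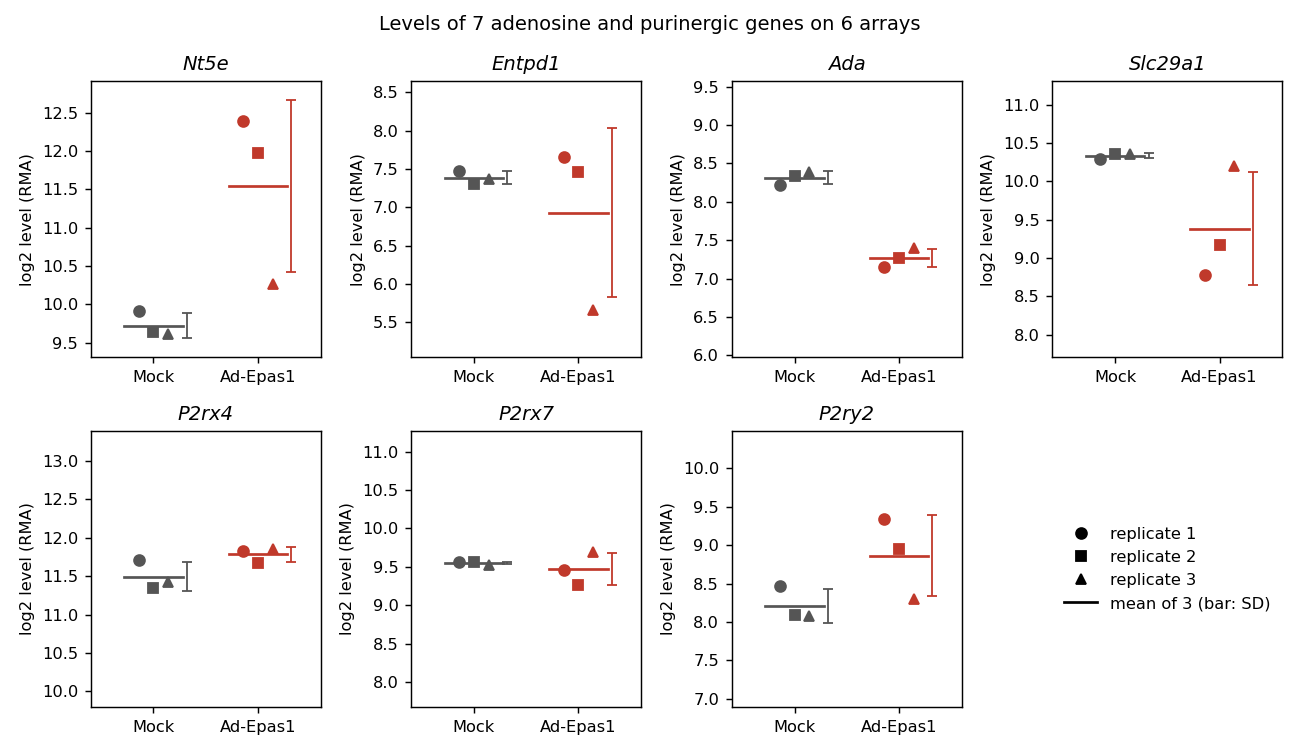
Log2 level (vertical axis, same span of 3.6 in each panel) of the 7 measured genes on 3 Mock and 3 Ad-Epas1 arrays. Each symbol is 1 array, horizontal lines are group means and bars are SDs. Ada separates the groups on all arrays (7.15 to 7.39 against 8.22 to 8.39), while Nt5e, Slc29a1 and P2ry2 on Ad-Epas1 replicate 3 lie near the Mock arrays.

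Of the enzymes that make adenosine from ATP, Nt5e was higher on every Ad-Epas1 array and Entpd1 was not, and both were lowest within Ad-Epas1 on the third array. Nt5e had the largest difference of the 7 genes. It stood at 9.91, 9.64 and 9.61 on Mock 1, 2 and 3 and at 12.39, 11.97 and 10.27 on Ad-Epas1 1, 2 and 3. Every Ad-Epas1 array was above every Mock array, but the third was only 0.36 above the highest Mock array. The means were 9.72 ± 0.16 and 11.54 ± 1.12 (SD, n = 3 each), a 3.54-fold difference (log2 fold change 1.82, SE 0.51) that did not pass (limma, adjusted p = 0.055). Its 95% interval ran from 0.61 to 3.04. Without Ad-Epas1 3 Nt5e rose by 2.46 (SE 0.15, adjusted p = 2.9e-04), which is 5.50-fold. With the replicate number as a block it also passed (adjusted p = 0.040). Adjusted p over all alternatives ranged from 2.2e-04 to 0.16.

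Entpd1, whose product CD39 acts one step earlier, did not pass in either direction. It stood at 7.48, 7.31 and 7.37 in Mock and at 7.66, 7.47 and 5.66 in Ad-Epas1. The first pair of Ad-Epas1 arrays was within or just above the Mock range, and the third was far below it and under the 6.62 mark. The difference over all arrays was -0.46 (SE 0.50, limma, adjusted p = 0.56), with an interval from -1.64 to 0.73. Without Ad-Epas1 3 it was 0.18 (SE 0.09, adjusted p = 0.22). The low array is the one with low macrophage markers, and the part of those cells in the Entpd1 level was not tested.

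Of the genes that remove adenosine, Ada gave the steadiest result of the members. It stood at 8.22, 8.34 and 8.39 in Mock and at 7.15, 7.26 and 7.39 in Ad-Epas1, so the groups were separated by 0.83. The means were 8.31 ± 0.08 and 7.27 ± 0.12 (SD, n = 3 each), which is 2.06-fold lower in Ad-Epas1 (log2 fold change -1.05, SE 0.09, limma, adjusted p = 0.0015). The call held under all 15 alternatives run, with adjusted p from 8.2e-05 to 0.015 and differences from -1.15 to -0.95. On Ad-Epas1 3 the fall was 0.92 below the Mock mean, close to that of the other Ad-Epas1 arrays.

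Slc29a1, the gene of the nucleoside transporter ENT1, was also lower but unevenly. Mock arrays stood at 10.30, 10.35 and 10.35, a spread of 0.03 (SD, n = 3). Ad-Epas1 arrays stood at 8.78, 9.17 and 10.20. The third was only 0.10 below the lowest Mock array, while the others were more than 1 log2 unit below it. The difference was -0.95 (SE 0.33, limma, adjusted p = 0.10) and did not pass. Without Ad-Epas1 3 Slc29a1 fell by 1.36 (SE 0.12, adjusted p = 7.8e-04), which is 2.57-fold. A second, dim probe set of the gene stood at no more than 5.18, below the 6.62 mark, and differed by -0.08.

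The receptors for ATP differed from one another. P2ry2 encodes a G protein-coupled receptor for ATP and UTP. It stood at 8.47, 8.09 and 8.07 in Mock and at 9.35, 8.95 and 8.30 in Ad-Epas1. The groups overlapped, since Mock 1 was above Ad-Epas1 3. The difference was 0.65 (SE 0.26, limma, adjusted p = 0.14). Without Ad-Epas1 3 P2ry2 rose by 0.94 (SE 0.16, adjusted p = 0.0083).

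P2rx4 and P2rx7 encode ATP-gated channels, and the genes lie near each other on 1 chromosome with 2 listed genes between them. P2rx4 stood at 11.71, 11.34 and 11.43 in Mock and at 11.83, 11.67 and 11.86 in Ad-Epas1. Mock 1 lay just above the lowest Ad-Epas1 array, and the difference was 0.29 (SE 0.11, limma, adjusted p = 0.13). Without Mock 1 it was 0.40 and passed (adjusted p = 0.048). P2rx7 stood at 9.56, 9.56 and 9.53 in Mock and at 9.46, 9.26 and 9.69 in Ad-Epas1, with the Mock arrays inside the Ad-Epas1 range. Its difference was -0.08, with an interval from -0.34 to 0.19 (limma, adjusted p = 0.66). On the array with low macrophage markers P2rx4 was 0.36 and P2rx7 0.14 above the Mock mean. The part of macrophages in the level of either gene was not tested.

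**Figure D2:**
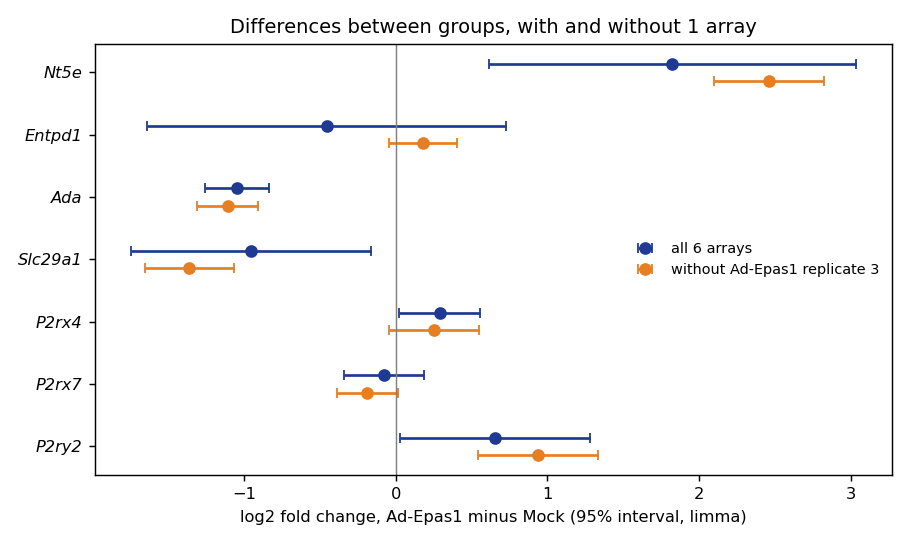
Log2 fold change of Ad-Epas1 against Mock (horizontal axis) for the 7 genes, with 95% intervals from limma, over all 6 arrays (blue) and without Ad-Epas1 3 (orange). The intervals of Nt5e, Slc29a1, Entpd1 and P2ry2 shrink the most when that array is left out, and that of Ada is much the same in both.

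The 4 members that passed without Ad-Epas1 3 can be compared on that array, which the fit did not use. There Ada had 83.4% of the mean difference seen on the other Ad-Epas1 arrays, Nt5e 22.4% and P2ry2 9.25%. Slc29a1 was 0.14 below the Mock mean there, against 1.36 on the other Ad-Epas1 arrays. For the 5390 genes that passed in that fit, the median was 61.8% and the quartiles 32.9% and 90.2%. Nt5e, Slc29a1 and P2ry2 were thus below the lower quartile and Ada was within the quartiles. Over all arrays Ada passed and Nt5e, Slc29a1 and P2ry2 did not, so the low shares are not separate from those calls. The 5390 genes were not split by whether they also passed over all arrays. Epas1 itself had 99.2%. Macrophage markers were low on the same array, and their part in these values was not tested.

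**Figure D3:**
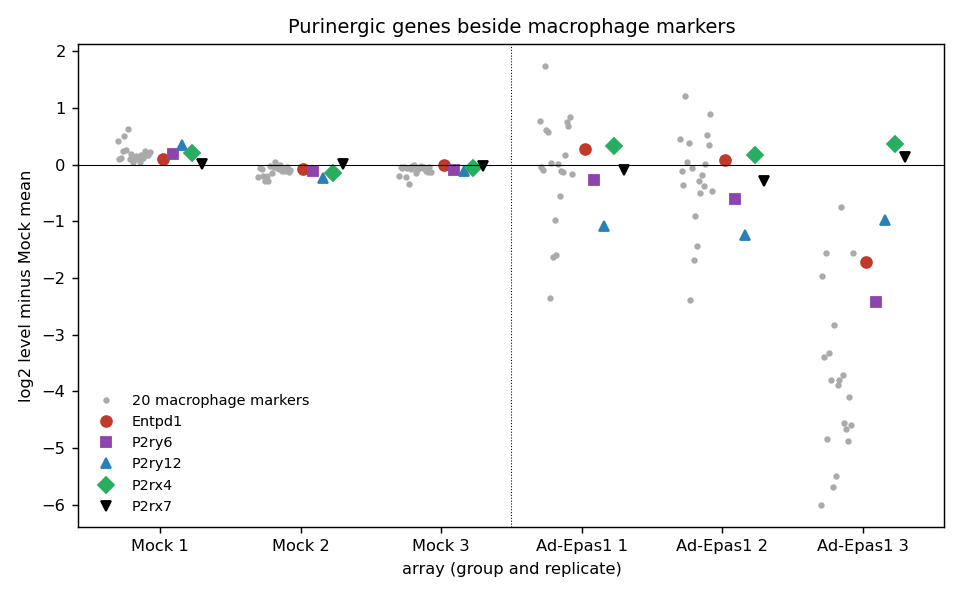
Log2 level minus the Mock mean (vertical axis) on each of the 6 arrays, for 20 macrophage markers (grey points) and 5 purinergic genes (coloured symbols). On Ad-Epas1 3 the markers lie below the Mock mean (median -3.85), as do Entpd1, P2ry6 and P2ry12, while P2rx4 and P2rx7 are slightly above it. P2ry6 and P2ry12 are below it on the other Ad-Epas1 arrays too.

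Genes that let ATP out of cells moved in part. Of 9 measured, 3 rose, 1 fell and 5 did not pass, with a median of 0.07 beside 0.05 for all genes. Over all genes 6.57% rose and 9.75% fell. Without Ad-Epas1 3 the counts were 3 up and 2 down, where 24.3% of all genes passed. Gja1, which encodes a connexin of hemichannels and gap junctions, stood at 11.49, 11.22 and 11.13 in Mock and at 12.55, 12.56 and 12.22 in Ad-Epas1. It rose 2.23-fold (log2 fold change 1.16, SE 0.13, limma, adjusted p = 0.0035), with no overlap between groups. Lrrc8a, a subunit of the volume-regulated anion channel, rose by 0.71 (SE 0.12, adjusted p = 0.011), and Panx1, the pannexin channel, by 0.41 (SE 0.08, adjusted p = 0.018). Slc17a9, the transporter that loads nucleotides into vesicles, fell by 0.45 (SE 0.10, adjusted p = 0.025). Lrrc8a lost its call without Mock 2 (adjusted p = 0.051). Panx1 and Slc17a9 lost theirs without any 1 array other than Ad-Epas1 3 (up to 0.073 and 0.10). Slc17a9 did so with another quantile step too (0.087).

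None of the 8 other measured surface or organelle nucleotidases and phosphatases passed over all arrays in limma (0 of 8, against 16.3% of all genes), and the median was 0.05. Without Ad-Epas1 3 there was 1 rise, that of Acpp. Acpp, now named Acp3, is a phosphatase that can make adenosine from AMP and was singled out after its values were seen. It stood at 6.40, 6.35 and 6.46 in Mock, below the 6.62 mark, and at 9.35, 8.15 and 6.53 in Ad-Epas1. As with Nt5e, the third Ad-Epas1 array was close to Mock. The difference was 3.04-fold (SE 0.63 on the log2 scale, limma, adjusted p = 0.13), and without that array Acpp rose by 2.34 (SE 0.31, adjusted p = 0.0031).

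Among 22 measured genes of adenosine, AMP and purine handling, 3 rose, 1 fell and 18 did not pass, with a median of 0.06. That share of calls is near the 16.3% of all genes. Without Ad-Epas1 3 the counts were 3 up and 3 down, against 24.3% of all genes called. Ampd3, an AMP deaminase, stood at 11.19, 10.47 and 10.44 in Mock and at 11.58, 11.59 and 11.70 in Ad-Epas1. It rose by 0.93 (SE 0.20, limma, adjusted p = 0.025), and its Ad-Epas1 arrays were close together, the third included. Nt5c2, a cytosolic nucleotidase, rose by 0.87 (SE 0.21, adjusted p = 0.034), with 10.44, 10.57 and 9.74 in Ad-Epas1 against a Mock mean of 9.38. Slc29a3, a nucleoside transporter of lysosomes, fell by 0.45 (SE 0.09, adjusted p = 0.019). Ampd1, a muscle AMP deaminase, rose by 0.39 (SE 0.06, adjusted p = 0.0094) but stayed below the 6.62 mark on all arrays. Adk, the kinase that returns adenosine to AMP, differed by -0.49 (SE 0.17, adjusted p = 0.098). It was named after its values were seen, and without Ad-Epas1 3 it fell by 0.66 (adjusted p = 0.010). Ampd1 lost its call without Mock 3 (adjusted p = 0.054). Ampd3 lost it without Mock 2, Mock 3, Ad-Epas1 1 or Ad-Epas1 2 (up to 0.096). Nt5c2 lost it without any 1 array but Ad-Epas1 3 (up to 0.12). Slc29a3 lost it without any 1 Mock array or Ad-Epas1 2 (up to 0.085), and over the mean of its 2 probe sets (-0.08, adjusted p = 0.41).

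Of 13 measured receptors for purines other than the members, 2 fell, none rose and 11 did not pass, with a median of -0.15. This is near the background, in which 16.3% of all genes were called and 9.75% fell. Without Ad-Epas1 3 there were 3 falls and no rise, against 24.3% called. P2ry12, an ADP receptor, stood at 7.94, 7.36 and 7.49 in Mock and at 6.51, 6.35 and 6.62 in Ad-Epas1. It fell by 1.10 (SE 0.16, limma, adjusted p = 0.0070), and the third Ad-Epas1 array was like the other Ad-Epas1 arrays. The Ad-Epas1 mean of 6.49 is under the 6.62 mark, so the size of that fall is not exact. P2ry1, another ADP receptor, fell by 0.38 (SE 0.10, adjusted p = 0.049), but did not pass in 7 of its 14 alternatives. Among these were the fits with the replicate block (0.073) and with arrays centred on their medians (0.053), and those without Mock 1, Mock 2, Ad-Epas1 1 or Ad-Epas1 2 (up to 0.15). P2ry6, a UDP receptor named after its values were seen, stood at 11.28, 10.98 and 10.99 in Mock and at 10.82, 10.47 and 8.67 in Ad-Epas1. Its difference was -1.10 (SE 0.52, adjusted p = 0.20), and -0.44 without the array with low macrophage markers (adjusted p = 0.067). Adora3, the only adenosine receptor gene analysed here, was also named after its values were seen. It stood between 6.29 and 6.61, under the 6.62 mark, and differed by 0.04 (adjusted p = 0.81).

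The cyclic AMP machinery, through which adenosine receptors act, held 5 falls and no rise among 33 measured genes, with a median of -0.09 and 28 not passed. The share of calls is near that of all genes (16.3%, and 9.75% downward). Adcy2, an adenylyl cyclase, stood at 9.21, 9.09 and 8.95 in Mock and at 8.27, 8.27 and 7.68 in Ad-Epas1. It fell 2.02-fold (log2 fold change -1.01, SE 0.17, limma, adjusted p = 0.012). Adcy9, another cyclase, fell by 0.81 (SE 0.11, adjusted p = 0.0062), and the groups did not overlap for either. The catalytic subunits of protein kinase A fell by 0.49 (Prkaca, SE 0.08, adjusted p = 0.0099) and 0.40 (Prkacb, SE 0.07, adjusted p = 0.015). Gnai2, an inhibitory G protein subunit, fell by 0.26 (adjusted p = 0.047). Without Ad-Epas1 3 the list held 9 falls and 1 rise, against 24.3% of all genes called. Adcy2 lost its call without Mock 2 (adjusted p = 0.058). Prkaca lost it without Mock 2 or 3 (up to 0.054), and Prkacb without these or Ad-Epas1 2 (up to 0.064). Gnai2 lost it without any 1 array (up to 0.15), with the replicate block (0.095) and with arrays centred on their medians (0.057).

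Of 9 measured genes known to be induced by cyclic AMP, among other stimuli, 4 rose, 1 fell and 4 did not pass, with a median of 0.35. Over all genes 6.57% rose and 9.75% fell. Without Ad-Epas1 3 the counts were 5 up and 1 down, where 24.3% of all genes passed. Sik1, a kinase that restrains CREB-driven transcription, stood at 8.90, 8.50 and 8.54 in Mock and at 10.41, 10.31 and 10.12 in Ad-Epas1. It rose 3.10-fold (log2 fold change 1.63, SE 0.13, limma, adjusted p = 0.0013). The orphan nuclear receptor gene Nr4a3 rose 2.46-fold (SE 0.18 on the log2 scale, adjusted p = 0.0057) from a Mock mean of 6.54, under the 6.62 mark. Nr4a1 rose by 0.42 (adjusted p = 0.037), and Crem, which encodes a CREB-related factor, by 0.35 (adjusted p = 0.0499). Rgs2, a brake on G protein signalling, fell by 1.74 (SE 0.34, adjusted p = 0.019), from a Mock mean of 9.51 to 8.05, 8.32 and 6.93. Over the mean of its 2 probe sets the difference was smaller, -0.92 (SE 0.17, limma, adjusted p = 0.015). Rgs2 lost its call without Mock 2 or 3 (adjusted p up to 0.080). Nr4a1 lost it without any 1 Mock array or Ad-Epas1 2 (up to 0.13) and with the replicate block (0.080). Crem lost it without any 1 array but Ad-Epas1 3 (up to 0.17), with the replicate block (0.053) and with every probe set tested separately (0.051).

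Of 7 measured genes of the inflammasome and the cytokines whose release follows P2X7 activation, 2 fell, none rose and 5 did not pass, with a median of -0.38. Over all genes 16.3% were called and 9.75% fell. The falls were those of Il18 (-0.52, SE 0.10, limma, adjusted p = 0.019) and of Pycard, an inflammasome adaptor (-0.38, SE 0.09, adjusted p = 0.038). Casp1, the protease that matures interleukin-1beta, and Il1b were named after their values were seen. Casp1 stood at 8.98, 8.68 and 5.01 in Ad-Epas1 against a Mock mean of 8.29. Il1b stood at 8.57, 6.06 and 6.34 in Mock, with Mock 2 and Mock 3 under the 6.62 mark. In Ad-Epas1 it stood at 12.7, 12.2 and 5.54. Over all arrays Il1b differed by 3.15 (SE 1.88, limma, adjusted p = 0.29) and did not pass. Casp1 and Il1b were both at their lowest on the array with low macrophage markers, while P2rx7 was at its highest there. Without that array, where 24.3% of all genes passed, 3 of the 7 rose and 2 fell. Among the rises were Casp1 by 0.54 (SE 0.12, limma, adjusted p = 0.019) and Il1b by 5.45 (SE 0.71, adjusted p = 0.0028). Il18 lost its call without Mock 2, Mock 3 or Ad-Epas1 2 (up to 0.084). Pycard lost it without Mock 1, Mock 2, Ad-Epas1 1 or Ad-Epas1 2 (up to 0.13), with the replicate block (0.059) and with another quantile step (0.16).

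**Figure D4:**
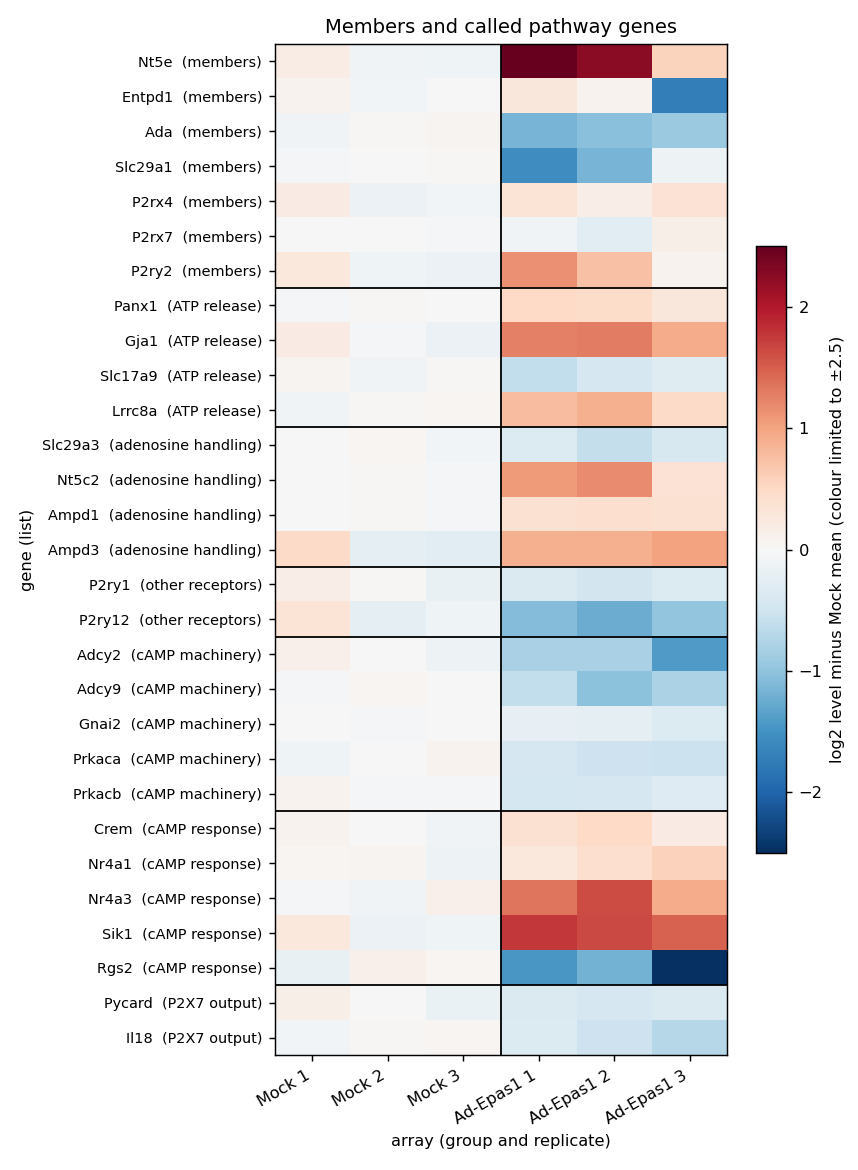
Log2 level minus the Mock mean (colour, limited to 2.5 in either direction) for the 7 members and the 22 called genes of the other pathway lists (rows) on the 6 arrays (columns). Red is above and blue below the Mock mean. Ada, P2ry12, Sik1 and Gja1 keep 1 colour on all 3 Ad-Epas1 arrays, whereas Nt5e, Slc29a1 and P2ry2 are pale on the third.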

How the data were processed

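RNA from 3 Mock and 3 Ad-Epas1 samples was measured on Affymetrix whole-transcript arrays, with 300 ng of total RNA labelled per array, per the labels' protocols. The authors deposited log2 levels, 1 for each probe set on each array. Per the submitters' processing notes, these came from RMA run in Expression Console 1.3.1 by Affymetrix. RMA subtracts background, equalises the arrays' distributions and summarises probes, so a change shared by most genes is hidden and large folds are compressed. The sources used here give no genome build. The number of arrays limits the precision. No column belonged to another sample (0 columns).

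Of 41345 probe sets, 23521 had 1 gene symbol, 1814 several and 16010 none. Entrez identifiers of 23328 were in a GRCm38.p6 RefSeq table, which changed 0 symbols. The brightest probe set stood for each of 22180 genes. No filter on level was applied. Ad-Epas1 was compared with Mock in limma 3.58.1 (R 4.3.3, lmFit and eBayes, two-sided), p-values being adjusted over the 22180 genes by Benjamini and Hochberg's method and called under 0.05. An exact permutation test of 3 against 3 cannot go below p = 0.1. SE is limma's moderated standard error. The procedure was tested on simulated data with independent noise and no deviating array, so that test does not cover an array such as Ad-Epas1 replicate 3. Samples were grouped by title.

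The members and lists were chosen with earlier results of these data known. The lists hold 196 symbols, of which 183 were measured, 2 of them under an older name (Acpp, Ank). Lists are described by counts and medians. Named were all measured members, Epas1, and up to 5 called genes of each pathway list with the smallest p. Others are marked. Alternatives were 14 planned ones (replicate block, each array left out, 2 scalings, a level filter, trend and robust fitting, array weights, 2 ways of treating probe sets) and 1 added after seeing the data (without Mock replicate 1 and Ad-Epas1 replicate 3). Same-numbered arrays did not all deviate together from their group means (r = 0.34, -0.19 and 0.21 across genes), and nothing in the labels says that a number pairs them.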

Additional observations from a re-analysis of the deposited data

How the results depend on the processing

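The count of members called was 1 over all arrays, and Ada was called under all 15 alternatives. Leaving out 1 array in turn gave between 1 and 4 members called, the highest without Ad-Epas1 replicate 3 and 2 without Mock replicate 1 (Ada and P2rx4). The count was 2 with the replicate block, with a second quantile step and with only genes above the median level, each time Ada and Nt5e (adjusted p of Nt5e 0.040, 0.049 and 0.046). It was 5 with array weights, where Ad-Epas1 replicate 3 had the lowest weight (0.29), and 5 without Mock replicate 1 and Ad-Epas1 replicate 3 together. In both, P2rx4 joined Nt5e, P2ry2, Ada and Slc29a1. The replicate block changed no other member's call. Leaving out 1 array in turn gave Entpd1 differences from -0.82 to 0.18, reversed without Ad-Epas1 replicate 3, and P2rx7 differences from -0.19 to 0.025, reversed without Ad-Epas1 replicate 2. Entpd1 was also reversed (0.22) with both Mock replicate 1 and Ad-Epas1 replicate 3 left out. None of these reversed values passed. Over all genes, 3620 were called, against 1187 without Mock replicate 2, 1181 without Mock replicate 3, 2186 and 1512 in the fits that lack Ad-Epas1 replicate 1 or 2, 7791 with array weights and 6000 without Mock replicate 1 and Ad-Epas1 replicate 3. The median log2 fold change of all genes was 0.05, 0.03 with a second quantile step and 0.07 with centred arrays, and neither scaling reversed a member. Fold changes of genes near or below 6.62, such as Entpd1 on Ad-Epas1 replicate 3, are limited by background signal.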
